A study of Mus musculus with 4 samples.

Results

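Open chromatin was described around Cbfa2t3, Bcl11a and Mef2c, 3 genes of transcriptional regulators tied to plasmacytoid dendritic cells (pDC), in pDC and in classical dendritic cells of type 1 (cDC1). The members were chosen by position: every open interval and every footprint of the deposited lists that overlapped 1 of 3 windows in mm9 coordinates was taken. The windows were chr8:125120000-125300000 for Cbfa2t3, chr11:23920000-24200000 for Bcl11a and chr13:83550000-83870000 for Mef2c. They held 136 of the 135642 intervals (58 in pDC and 78 in cDC1) and 706 of the 826648 footprints (276 in pDC and 430 in cDC1). An interval is a stretch of the genome where reads pile up above background, and a footprint is a short dip inside it, such as a bound protein leaves. Merging the overlapping intervals of both lists gave 97 regions out of 93615, numbered here in order of position within each window. Since the genes were picked with results of these data in view, all counts below are descriptions without a test.

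The cells were grown from mouse bone marrow in a 2-step culture, with cytokines for expansion and Flt3 ligand for the differentiation step. pDC were sorted as CD11c+ CD11b- B220+ cells and cDC1 as CD11c+ CD11b+ XCR1+ cells. Strain, genotype, sex and age of the mice were not given in the sources used here, and both cell types came from the same kind of culture with no treatment that set them apart. Omni-ATAC-seq, in which a transposase cuts accessible DNA, was run on 2 replicate samples of each type, and the authors merged them, so 1 list per type stands for 2 samples and the spread between replicates is unknown. The merged pDC library had 128632344 reads, of which 20573914 (16.0%) lay in peaks, and the merged cDC1 library had 224602046 reads, of which 76451634 (34.0%) lay in peaks. The identity of the cells was not checked against marker genes here, because no annotation in mm9 was used.

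pDC are the main producers of type I interferon, and cDC1 are specialised in presenting antigen taken up from other cells to cytotoxic T cells. The E protein TCF4, which binds E-boxes, maintains the pDC fate, and ID2, an inhibitor of E proteins, favours classical dendritic cells. CBFA2T3, also called ETO2 or MTG16, is a corepressor that does not bind DNA by itself but is brought to it by partners such as E proteins, and in mice it limits Id2. BCL11A is a zinc-finger transcription factor that mouse pDC and B cells need to develop. MEF2C is a MADS-box transcription factor known from muscle and neurons and from lymphoid cells, where it takes part in B cell responses.

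RefSeq promoters of the 3 genes, from 250 bases before to 50 after an annotated start, are shown to give the DNA at the starts of the genes that name the windows. The table held 6 start sites for the genes, 2 for Cbfa2t3, 1 for Bcl11a and 3 for Mef2c, and the site of each gene with the most motif matches is printed. Coordinates are those of GRCm38.p6 and were not converted to mm9, so these promoters were not placed among the numbered regions. Capitals mark matches, on either strand, to the E-box CANNTG or to GAGGAA, the core of PU.1 and SPIB sites; the Cbfa2t3 promoter lies on the minus strand at chr8:122699060-122699359, and those of Bcl11a and Mef2c lie on the plus strand at chr11:24080445-24080744 and chr13:83503784-83504083.
Cbfa2t3: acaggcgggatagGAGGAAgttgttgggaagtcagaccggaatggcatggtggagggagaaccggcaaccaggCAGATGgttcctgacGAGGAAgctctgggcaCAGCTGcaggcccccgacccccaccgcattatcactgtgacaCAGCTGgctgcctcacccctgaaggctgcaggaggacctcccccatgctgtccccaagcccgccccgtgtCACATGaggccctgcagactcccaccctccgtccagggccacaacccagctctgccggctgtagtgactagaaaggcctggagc
Bcl11a: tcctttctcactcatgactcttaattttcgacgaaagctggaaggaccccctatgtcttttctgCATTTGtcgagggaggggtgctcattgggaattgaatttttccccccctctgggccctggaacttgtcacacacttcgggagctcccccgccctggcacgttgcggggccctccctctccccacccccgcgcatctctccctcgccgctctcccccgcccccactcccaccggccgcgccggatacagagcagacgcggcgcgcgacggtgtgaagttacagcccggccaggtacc
Mef2c: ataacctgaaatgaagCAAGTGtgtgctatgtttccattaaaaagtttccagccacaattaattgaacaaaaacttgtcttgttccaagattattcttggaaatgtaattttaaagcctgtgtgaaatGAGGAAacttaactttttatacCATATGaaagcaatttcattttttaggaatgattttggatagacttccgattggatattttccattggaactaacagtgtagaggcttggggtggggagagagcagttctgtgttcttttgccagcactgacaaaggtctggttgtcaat
The Cbfa2t3 promoter held 4 E-boxes and 2 GAGGAA, the Bcl11a promoter 1 E-box, and the Mef2c promoter 2 E-boxes and 1 GAGGAA. Across all 32851 mouse promoters of the table, 72.3% held CANNTG and 28.3% held GAGGAA, so that an E-box in these promoters is the common case. The printed sites of Cbfa2t3 and Mef2c were picked for their matches, which raises their counts relative to these shares. No printed promoter matched the IRF motif (in 3.44% of promoters), TGTGGT (RUNX sites, in 16.8%) or TGANTCA (AP-1 sites, in 7.81%); no match in these promoters overlapped another. The printed promoters also differed in base composition, with 63.7% G and C for Cbfa2t3, 63.0% for Bcl11a and 35.7% for Mef2c, against a median of 52.7% over the table. The other Cbfa2t3 start site had 81.7% G and C and a single E-box, CAGGTG. Of the other Mef2c start sites, 1 held a GAGGAA and 1 held an E-box and a TGANTCA. These had 47% and 48.3% G and C in the same order, nearer the median than the printed Mef2c site. A match is a description of letters and not a bound site.

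The 3 windows differed in the balance between the cell types. The Cbfa2t3 window held more pDC than cDC1 intervals, 28 against 26, and more pDC than cDC1 footprints, 152 against 129. The Bcl11a window held 20 pDC and 29 cDC1 intervals, with 78 pDC and 164 cDC1 footprints. The Mef2c window held 10 pDC and 23 cDC1 intervals, with 46 pDC and 137 cDC1 footprints. The ratio of pDC to cDC1 intervals was thus 1.08 for Cbfa2t3, 0.690 for Bcl11a and 0.435 for Mef2c, where the whole lists gave 0.621. For footprints the ratio was 1.18, 0.476 and 0.336 in the same order, and 0.609 over the whole lists. In the share of the window that was open, pDC intervals covered 8.06% and cDC1 intervals 7.09% of the Cbfa2t3 window, 3.51% and 5.32% of the Bcl11a window, and 1.49% and 3.45% of the Mef2c window.

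**Figure D1:**
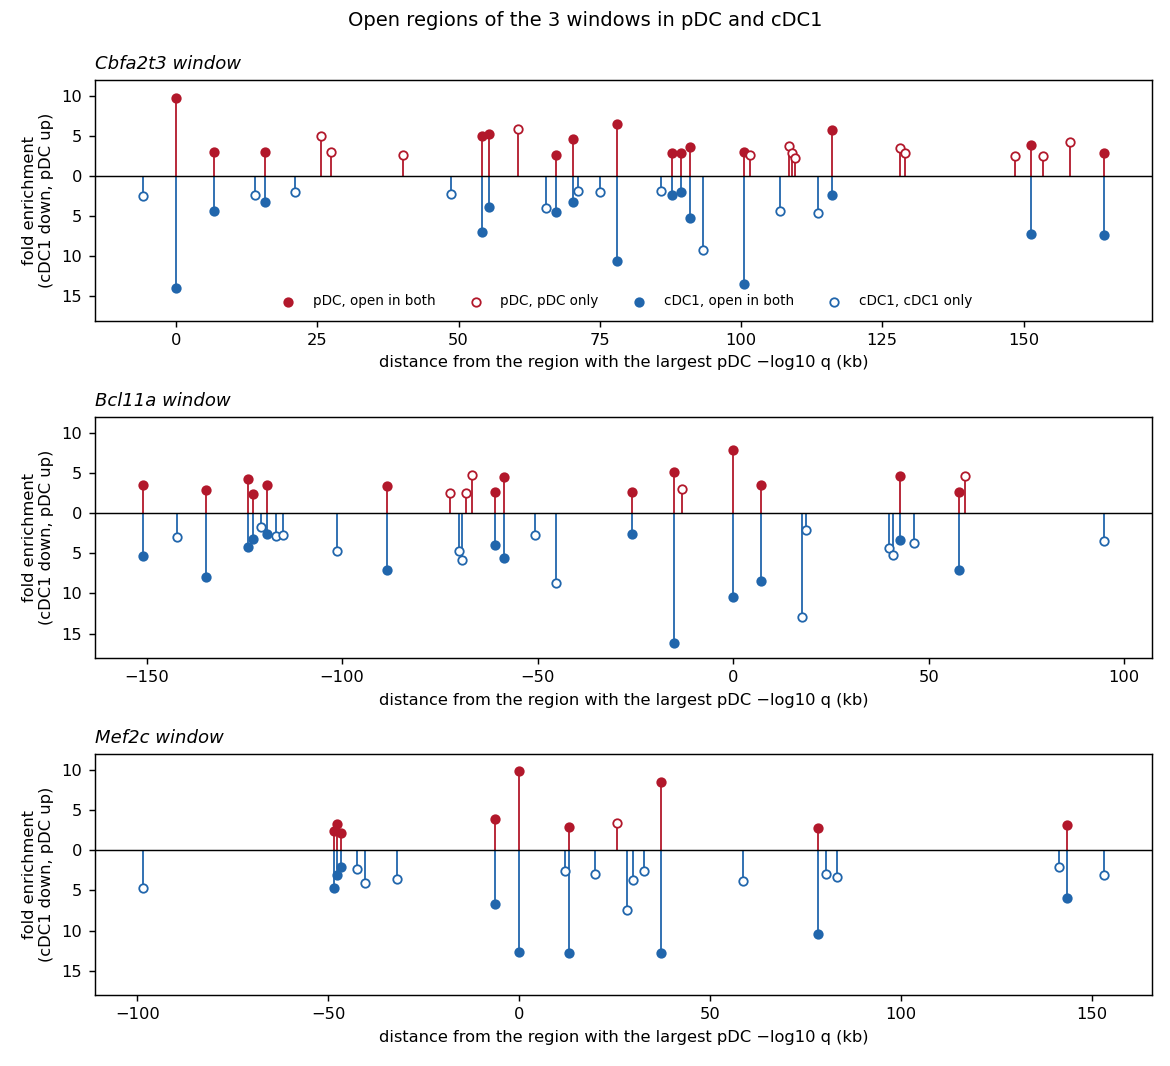
Fold enrichment over background (y axis, pDC up and cDC1 down) of each region in the 3 windows, by distance in kb from the region with the largest pDC −log10 q of the window (x axis); filled circles are regions open in both cell types and open circles regions open in 1. The Cbfa2t3 window holds 13 open pDC circles, the Bcl11a window 5 and the Mef2c window 1, and the longest stem, at 16.2, is a cDC1 interval of the Bcl11a window.

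An interval was called found in 1 cell type when no base of it lay in an interval of the other. In the Cbfa2t3 window 13 of 28 pDC intervals were found in pDC only (46.4%, 95% Wilson interval 29.5 to 64.2), in the Bcl11a window 5 of 20 (25%, 11.2 to 46.9) and in the Mef2c window 1 of 10 (10%, 1.79 to 40.4). Over the whole pDC list the share was 19.7%. The interval of Cbfa2t3 lay above that background, while those of Bcl11a and Mef2c included it. Of the cDC1 intervals, 11 of 26 were found in cDC1 only at Cbfa2t3 (42.3%, 25.5 to 61.1), 15 of 29 at Bcl11a (51.7%, 34.4 to 68.6) and 14 of 23 at Mef2c (60.9%, 40.8 to 77.8), where the whole cDC1 list gave 50.9%. All 3 of these intervals included the background. The counts depended on the lists. At a −log10 q of 10 or more in each list, 7 of 17 pDC intervals of Cbfa2t3, 2 of 9 of Bcl11a and 0 of 3 of Mef2c were found in pDC only, against 18.5% of the whole pDC list at that limit. Of the cDC1 intervals at that limit, 8 of 18, 17 of 24 and 14 of 17 were found in cDC1 only in the same order, against 60.2%. With the cDC1 list shortened to the size of the pDC list, 4 of 17 cDC1 intervals of Cbfa2t3, 9 of 21 of Bcl11a and 5 of 13 of Mef2c were found in cDC1 only, against 34.5% of the whole shortened list. In that setting 15 of 28, 7 of 20 and 2 of 10 pDC intervals were found in pDC only, against 32.9%. The Wilson intervals cover counting error only, and neighbouring intervals of 1 locus are not independent. The windows were also chosen with results of these data known. Whether a Wilson interval lies above the background or includes it is therefore a description and not a test.

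**Figure D2:**
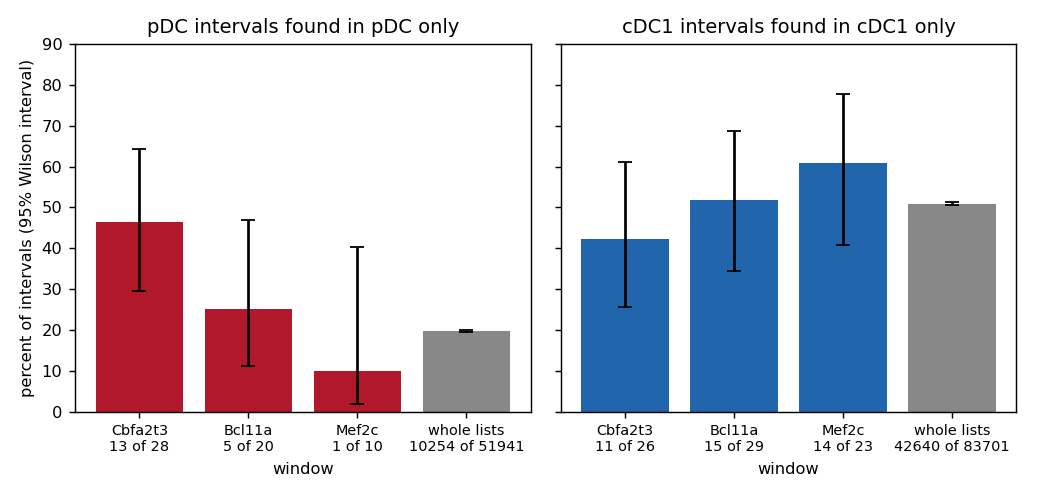
Percent of intervals found in pDC only (left, red) and in cDC1 only (right, blue) in each window and over the whole list (grey), with 95% Wilson intervals; the number of intervals stands under each bar. The share found in pDC only is 46.4% at Cbfa2t3 and 19.7% over the whole list.

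Counted as merged regions, 15 of 39 were shared at Cbfa2t3, 13 were open in pDC only and 11 in cDC1 only. At Bcl11a 14 of 34 were shared, 5 were open in pDC only and 15 in cDC1 only, and at Mef2c the counts were 9, 1 and 14 of 24. Together 38 of 97 regions were shared (39.2%), 19 were open in pDC only (19.6%) and 40 in cDC1 only (41.2%), where all merged regions gave 43.5%, 11.0% and 45.5%. Of the 19 regions open in pDC only, 13 therefore lay at Cbfa2t3.

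At Cbfa2t3 the strongest region was open in both cell types. Region 2, chr8:125134715-125135965, had the largest −log10 q of the window in both lists, 155 in pDC and 518 in cDC1, and a fold enrichment of 9.77 in pDC and 13.9 in cDC1. It held 13 pDC and 14 cDC1 footprints, together the most of the window. It lay near the low-coordinate end of the window, and all but 1 of the other regions lay on its high-coordinate side.

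The 13 regions of Cbfa2t3 open in pDC only were spread over much of the window and included 3 runs of 3 with no other region between them, regions 7 to 9, 28 to 30 and 33 to 35. Their −log10 q ran from 2.79 to 60.3 with a median of 7.02, and 6 of them reached 10. The strongest was region 13, chr8:125195635-125196302, with a −log10 q of 60.3, a fold enrichment of 5.90 and 9 footprints of up to 339 tags, where a tag count is the number of reads the footprint list gives for a footprint. No cDC1 interval overlapped it. Region 7, chr8:125160702-125161411, was next with a −log10 q of 38.7, a fold enrichment of 5.03 and 8 footprints. The 13 regions held 62 of the 152 pDC footprints of the window.

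The cDC1 library had more reads in peaks, so tag counts of the cell types were put on a common scale by the median ratio of pDC to cDC1 tags over the 91319 footprint pairs of the genome, 0.305. Of the 11 regions of Cbfa2t3 open in cDC1 only, the strongest was region 24, chr8:125228385-125228983, with a −log10 q of 391, a fold enrichment of 9.19 and 5 footprints of up to 1515 tags in cDC1. Its highest tag count corresponded to 463 on the pDC scale, yet no pDC interval was listed there. The other 10 regions open in cDC1 only had a −log10 q of 40.2 or less.

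Of the 15 shared regions of Cbfa2t3, 12 held a pair of footprints, 1 of each cell type, that overlapped by at least 50% of both, and 3 held none. For each such region the pair with the most tags was compared, as the pDC to cDC1 ratio divided by 0.305, with an exact 95% interval for counting error. The median ratio was 1.34, a log2 value of 0.42, where all 31914 such regions of the genome had 1.01. The ratio was above 1 in 9 of 12 regions, against 50.6% of all regions. It was 2-fold or more higher in pDC in 2 of 12, where the genome gave 12.6%, and 2-fold or more lower in 1 of 12, where the genome gave 8.93%. The 3 regions without a pair were regions 15, 21 and 22. Their highest pDC counts were 81, 213 and 171, and their highest cDC1 counts were 101, 96.8 and 146 on the pDC scale.

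The highest ratio was at region 32, chr8:125251199-125251665, with 143 tags in pDC and 66 in cDC1. It was 7.10 (5.27 to 9.65), and the region was also the stronger in pDC by fold enrichment, 5.72 in pDC and 2.38 in cDC1, and by −log10 q, 25.8 in pDC and 3.59 in cDC1. It was the only one of the 28 paired regions of the 3 windows where the pDC count exceeded the cDC1 count before scaling. Region 12 had 395 tags in pDC and 421 in cDC1, a ratio of 3.07 (2.67 to 3.53). The lowest ratio was at region 25, chr8:125235504-125236206, with 86 tags in pDC and 669 in cDC1, or 0.421 (0.332 to 0.528), which is 2.37-fold lower in pDC. Region 2, the strongest, had 565 tags in pDC and 1569 in cDC1 and a ratio of 1.18 (1.07 to 1.30). The window thus held shared regions that differed in either direction.

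**Figure D3:**
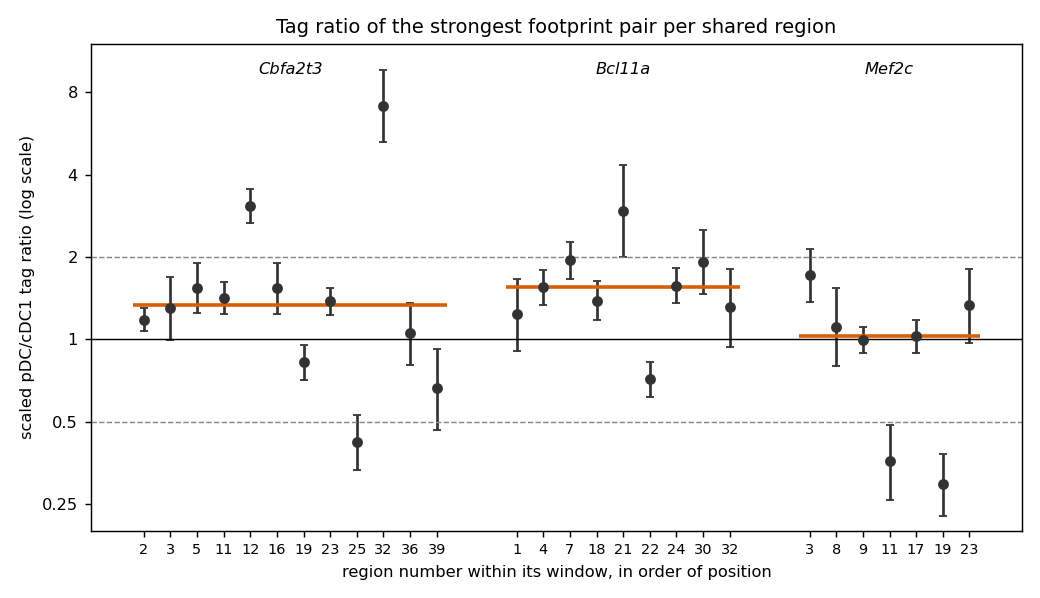
Scaled ratio of pDC to cDC1 tag counts (y axis, log scale) of the footprint pair with the most tags in each shared region that held a pair, by region number (x axis) in the 3 windows; bars are exact 95% intervals for counting error, orange lines the median of each window and dashed lines the 2-fold limits. Medians are 1.34, 1.55 and 1.03, and region 32 of Cbfa2t3 stands highest at 7.10.

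At Bcl11a the strongest regions of both cell types were different ones. In pDC it was region 24, chr11:24100115-24100885, with a −log10 q of 60.1 in pDC and 152 in cDC1 and a fold enrichment of 7.85 in pDC and 10.5 in cDC1. In cDC1 it was region 22, chr11:24084846-24085692, with a −log10 q of 32.2 in pDC and 348 in cDC1 and a fold enrichment of 5.09 in pDC and 16.2 in cDC1, the largest fold enrichment of the 3 windows. Their centres lay 15.2 kb apart. Region 32 held the most footprints of the window in sum, 4 in pDC and 20 in cDC1.

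The 5 regions of Bcl11a open in pDC only had a −log10 q of 5.73 to 29.96, and 2 of them reached 10. The strongest, region 16, chr11:24033367-24033865, had a fold enrichment of 4.81 and 5 footprints of up to 208 tags. The 15 regions open in cDC1 only were led by region 26, chr11:24117821-24118370, with a −log10 q of 195, a fold enrichment of 12.9 and 5 footprints of up to 628 tags, 192 on the pDC scale. A run of 4 regions open in cDC1 only, regions 26 to 29, followed the strongest pDC region and its neighbour on the high-coordinate side.

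Of the 14 shared regions of Bcl11a, 9 held a pair and 5 held none. The median ratio was 1.55, a log2 value of 0.63, and the ratio was above 1 in 8 of 9 paired regions, against 50.6% of all such regions. The interval lay above 1 in 6 regions and below 1 in 1. The share of all regions called this way was not computed, so these counts have no background beside them. Of the 9, only region 21 passed the 2-fold limit, where the genome gave 12.6% higher and 8.93% lower in pDC. Region 21 had 53 tags in pDC and 59 in cDC1 and a ratio of 2.94 (1.99 to 4.34). It was a weak region in both cell types, with a −log10 q of 4.08 in pDC and 4.90 in cDC1, and its summits lay 354 bp apart. Region 24 had 268 tags in pDC and 558 in cDC1, a ratio of 1.57 (1.36 to 1.82). Region 22 was the lone paired region below 1, with 214 tags in pDC and 981 in cDC1. Its ratio was 0.715 (0.613 to 0.829), which is 1.40-fold lower in pDC. The ratios of the paired regions of Bcl11a were therefore mostly above 1 by less than 2-fold. In the regions without a pair the highest tag counts of each cell type were compared instead, and no share over all such regions was computed. In regions 3, 5, 17 and 25 the highest pDC counts were 52, 166, 68 and 87. The highest cDC1 counts there were 77.9, 227, 121 and 110 on the pDC scale, and region 11 had no pDC footprint. With the highest footprint of each cell type, paired or not, the median log2 ratio over 13 regions was 0.23.

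At Mef2c 9 of 10 pDC intervals were shared with cDC1 (90%, 59.6 to 98.2), an interval that included the 80.3% of the whole pDC list. Region 9, chr13:83711027-83712082, led both lists, with a −log10 q of 113 in pDC and 418 in cDC1 and a fold enrichment of 9.94 in pDC and 12.7 in cDC1. It held 6 pDC and 18 cDC1 footprints. Its strongest pair had 432 tags in pDC and 1421 in cDC1, a ratio of 0.996 (0.892 to 1.11). At this scale that pair did not differ between the cell types beyond counting error. The footprint lists of region 9 differed outside that pair. From 83711766 to 83711880 the region held cDC1 footprints of 441 to 714 unscaled tags, and no pDC footprint was listed there. The pDC interval covered 812 bp of the 1056 bp of the region and the cDC1 interval 1050 bp. Footprints were called inside the intervals of their own list, so part of this stretch may have lain outside the pDC interval. Region 17, 37.1 kb away, was the other strong one, with a −log10 q of 78.1 in pDC and 363 in cDC1 and a ratio of 1.03 (0.890 to 1.18).

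**Figure D4:**
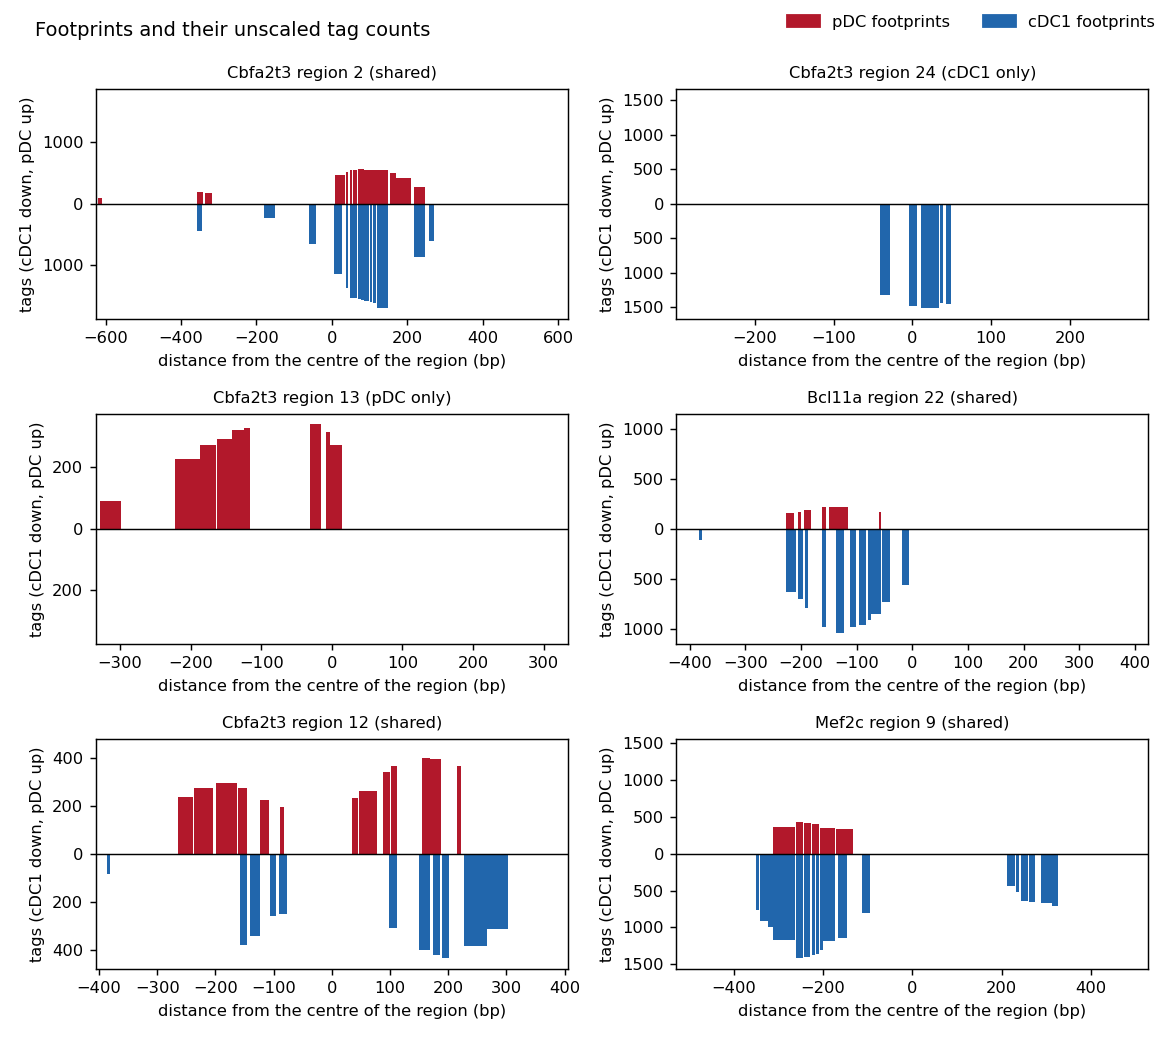
Unscaled tag counts of footprints (y axis, pDC up in red and cDC1 down in blue) by distance in bp from the centre of 6 regions (x axis). pDC footprints are absent from region 24 and cDC1 footprints from region 13 of Cbfa2t3, and in Mef2c region 9 the tallest footprints have 432 tags in pDC and 1421 in cDC1.

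The only Mef2c region open in pDC only was region 13, chr13:83736743-83737298, with a −log10 q of 6.23, a fold enrichment of 3.41 and 3 footprints of up to 49 tags. By contrast, 14 regions were open in cDC1 only, with a −log10 q of 2.38 to 91.9. The strongest was region 14, chr13:83739534-83740015, with a fold enrichment of 7.38 and 4 footprints of up to 434 tags, 133 on the pDC scale.

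Of the 9 shared regions of Mef2c, 7 held a pair. The median ratio was 1.03, a log2 value of 0.04, with 4 of 7 regions above 1, against 50.6% of all such regions. No region was 2-fold or more higher in pDC, where the genome gave 12.6%, and 2 of 7 were 2-fold or more lower, where the genome gave 8.93%. Region 19, chr13:83789332-83789891, had 66 tags in pDC and 728 in cDC1, a ratio of 0.297 (0.227 to 0.382), which is 3.37-fold lower in pDC, and its −log10 q was 3.98 in pDC and 175 in cDC1. Region 11 had 46 tags in pDC and 420 in cDC1, a ratio of 0.359 (0.259 to 0.487). The highest ratio was 1.72 (1.37 to 2.15), at region 3, with 121 tags in pDC and 231 in cDC1. The sign of a median rested on the scale: divided by the ratio of all reads in place of the median of all pairs, the median log2 ratios were -0.49 at Cbfa2t3, -0.28 at Bcl11a and -0.87 at Mef2c, a shift of -0.91 that all regions of the genome share, so only the position relative to all regions is described.

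Fold enrichment, which MACS2 computes within each library, was lower in pDC than in cDC1 in most shared regions. The median ratio of pDC to cDC1 fold enrichment was 0.702 at Cbfa2t3, 0.712 at Bcl11a and 0.581 at Mef2c, against 0.692 over all shared regions. It was higher in pDC in 5 of 15, 3 of 14 and 2 of 9 regions in the same order, together 26.3%, where the genome gave 16.9%. Summits of both cell types lay within 50 bp of each other in 27 of 38 shared regions (71.1%), close to the 70.1% of all shared regions.

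A pDC footprint was counted as shared when at least 50% of its bases lay in a single cDC1 footprint. One covered by several smaller cDC1 footprints could thus count as not shared. Of the pDC footprints, 29.6% were shared at Cbfa2t3 (22.9 to 37.3), 25.6% at Bcl11a (17.3 to 36.3) and 41.3% at Mef2c (28.3 to 55.7), where the whole list gave 40.7%. Within shared intervals the shares were 50%, 33.9% and 44.2% in the same order, against 48.4%. Of the cDC1 footprints, 37.2%, 18.9% and 14.6% were shared with pDC, against 26.9%, and within shared intervals 49.0%, 30.1% and 30.8%, against 45.1%. The low share of pDC footprints at Cbfa2t3 came with 62 of them in intervals that cDC1 lacked, while within shared intervals its share was near the background.

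More pDC than cDC1 footprints were listed in 5 of 15 shared regions of Cbfa2t3, 2 of 14 of Bcl11a and 4 of 9 of Mef2c, against 34.4% of all shared regions. Region 32 of Cbfa2t3 was among them, with 6 pDC and 2 cDC1 footprints. Region 32 of Bcl11a was the opposite case, with 4 pDC and 20 cDC1 footprints.

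The window borders were set by rule and not by the data. The nearest pDC intervals outside lay 18944 bp before and 15090 bp after the Cbfa2t3 window, with a −log10 q of 39.1 and 18.5, and the last pDC interval inside ended 116 bp before its end. The nearest cDC1 intervals outside lay 12396 bp before and 6113 bp after that window, with a −log10 q of 25.6 and 3.19, and the last cDC1 interval, of region 39, crossed its end by 132 bp. At Mef2c the next intervals began 278 bp beyond the end in pDC and 213 bp beyond it in cDC1, with a −log10 q of 4.91 and 14.6, so open chromatin continued just past that border. The windows also reached past the genes, being 2.43 times the RefSeq length of Cbfa2t3, 2.89 times that of Bcl11a and 1.96 times that of Mef2c, and the neighbours in the annotation are Pabpn1l and Acsf3, Papolg and Fancl, and Cetn3 and Tmem161b. A region in a window therefore need not belong to the gene that names it.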

How the data were processed

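Omni-ATAC-seq of sorted mouse pDC and cDC1 was analysed from the deposited lists. The authors used Trim Galore for trimming, Bowtie2 for alignment to mm9 and SAMtools for filtering, merged the 2 replicates of each cell type and called peaks with MACS2 and footprints with HINT-ATAC inside peaks. The deposited peak lists hold fold enrichment, a ratio over the MACS2 background, and −log10 q per summit. The paper describes a filter of merged peaks at a q-value above 10, but these lists went down to a −log10 q of 1.30 in both cell types. Counts here used all listed peaks unless a limit is given. The deposited footprint lists hold a tag count, read here as unscaled for depth because its values are whole numbers; the sources used here do not give the stretch that each count covers. No tool version is given in these sources, and the read totals are those of the study's library table. The labels do not say whether replicates came from separate cultures.

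Lines with the same borders were joined to intervals, which took the largest −log10 q of their summits. Overlaps of at least 1 bp (intervals) or 50% of the bases (footprints) counted as shared. Footprints were paired 1 to 1 at 50% of both, and the ratio of their tags was divided by the median of all pairs, 0.305. The limit for a difference was 2-fold. Intervals are 95% Wilson or exact ones and cover counting error only; reads without molecular identifiers are not independent molecules. bedtools 2.31.1, Python 3.11.15, numpy 2.4.6, pandas 2.3.3, scipy 1.17.1 and matplotlib 3.10.9 were used, and the steps were tested on simulated data. Named regions were, per window, those with the largest −log10 q in each cell type, also among regions of 1 cell type. Those with the highest and lowest ratio and the most footprints were named too. Regions 7 and 12 of Cbfa2t3 and 11 and 17 of Mef2c were named after their values were seen. So were the unpaired regions 15, 21 and 22 of Cbfa2t3 and 3, 5, 11, 17 and 25 of Bcl11a. Members, motifs and lists were chosen with earlier results of these data known. An mm9 genome and annotation were not used here, so regions were not assigned to exons, introns or promoters and no sequence was read at them.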

Additional observations from a re-analysis of the deposited data

How the results depend on the processing

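Of 42 values recomputed under another setting, 29 stayed within their limits and 13 did not. The limit was a fold change for counts and the Wilson interval for shares. A median had to keep its sign and lie within a range of the log2 ratios of its regions. At Mef2c that range was -1.75 to 0.78, the full range of its 7 regions, so the number within limits does not measure how stable the results are. With both lists cut at a −log10 q of 10, intervals found in pDC only numbered 7 at Cbfa2t3, 2 at Bcl11a and 0 at Mef2c. Without this limit they numbered 13, 5 and 1. Of the 7 at Cbfa2t3, 6 were among the 13. The share of the whole pDC list was 18.5% at that limit and 19.7% without it. When the cDC1 list was shortened to the size of the pDC list by −log10 q, intervals found in cDC1 only numbered 4 at Cbfa2t3, 9 at Bcl11a and 5 at Mef2c, against 11, 15 and 14; 17, 21 and 13 cDC1 intervals were left, and the share of the whole list was 34.5%, against 50.9%. In this setting those found in pDC only at Mef2c numbered 2, with 32.9% over the whole pDC list. Scaling tag ratios by all reads turned the median log2 ratio to -0.49 at Cbfa2t3, -0.28 at Bcl11a and -0.87 at Mef2c; this setting moves every ratio of the genome by -0.91, so the windows kept their place relative to all regions, and scaling by reads in peaks moves every ratio by 0.18. With the highest footprint of each cell type per region, paired or not, the median was 0.36 at Cbfa2t3, 0.23 at Bcl11a and -0.024 at Mef2c. With 1 bp of overlap, 38.5% of the pDC footprints of Bcl11a were shared. Using all pairs of a window, chosen after the data were seen, gave medians of 0.50 at Cbfa2t3, 0.35 at Bcl11a and 0.04 at Mef2c, so that the order of Cbfa2t3 and Bcl11a turned in these settings. The cause of these moves was not tested beyond what each setting itself changes.

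No paired analysis was possible because the lists used here are of merged replicates, 1 per cell type. For the same reason no replicate was left out in turn, and no difference here has a replicate check. A region missing from the pDC list, which had fewer reads in peaks, is one that was not called at this depth.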
